A study of Arabidopsis thaliana with 10 samples.

Results

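The genes described here are the 38 core and linker histone genes of Arabidopsis thaliana, chosen by their locus codes: 3 genes of linker histone H1, 4 of canonical H2A, 2 of H2A.X, 3 of H2A.W, 10 of H2B, 5 of H3.1, 3 of H3.3 and 8 of H4. They were read from a table of 33297 rows, in which 37 of the 38 have a row of their own and all 37 passed the filter on low values. HTR3, the fifth H3.1 gene, shares its row with the neighbouring gene AT3G27380, so that row is described separately and enters no class. The table compares whole seedlings, 7 days old, of 5 genotypes: the single mutants hda9 (SALK_007123), hos15 (hos15-2 SALK_064435) and pwr (SALK_071811C), the double mutant hda9 hos15 (hda9 SALK_007123 with hos15-2 SALK_064435), and the wild type Col (ecotype Columbia-0). Each single mutant is represented by 1 insertion line. All seedlings grew on agar (0.8%) with diluted MS medium at 23 °C in 16 hours of light and 8 hours of darkness and were taken at ZT 12, counted from lights-on, and polyadenylated RNA was sequenced with a stranded kit. The labels name 10 libraries, 2 per genotype, but the deposited values are 1 per gene and genotype, in FPKM, a measure of sequenced fragments normalised to transcript length and library depth. No difference below therefore has a replicate error or a test, and read depth is unknown.

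Histones package DNA: H2A, H2B, H3 and H4 form the nucleosome core, and H1 binds the linker DNA between nucleosomes. In plants the messages of these genes are polyadenylated, so a kit that selects polyadenylated RNA captures them. Most canonical genes, including those of H3.1, are transcribed mainly when DNA replicates, whereas H3.3 is made throughout the cell cycle and replaces H3 in transcribed chromatin. H2A.X takes part in the response to DNA breaks, H2A.W marks heterochromatin, and the linker variant H1.3 is induced by drought and low light. The mutated genes encode the histone deacetylase HDA9, the SANT-domain protein PWR (POWERDRESS) and HOS15, which carries WD40 repeats, and the study's design text describes these proteins as interacting partners.

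The 37 genes fell into families with different architecture. The 8 H4 genes encode 1 and the same protein, as do the 5 H3.1 genes and the 3 H3.3 genes, while the 10 H2B genes encode 10 distinct proteins. All 10 H2B and all 5 H3.1 genes are intronless, as are 7 of the 8 H4 genes. The H1 and H2A-type genes have 2 exons each, and the H3.3 genes have 3 to 5. The gene that carries the main result, HTB3 (AT2G28720, chromosome 2), is an intronless H2B gene. The first 120 bases of its coding sequence are shown with those of 2 further H2B genes, HTB2 (AT5G22880, chromosome 5) and HTB4 (AT5G59910, chromosome 5), because differences from Col went with transcript purine content in this table and the lysine-rich tail of H2B is encoded by purine-rich codons. Capitals mark runs of at least 6 purines (A or G), and the sequences come from RefSeq's TAIR10.1 assembly.
HTB3: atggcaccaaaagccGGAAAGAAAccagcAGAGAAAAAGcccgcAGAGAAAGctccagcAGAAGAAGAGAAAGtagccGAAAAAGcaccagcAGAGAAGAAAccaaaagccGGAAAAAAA
HTB2: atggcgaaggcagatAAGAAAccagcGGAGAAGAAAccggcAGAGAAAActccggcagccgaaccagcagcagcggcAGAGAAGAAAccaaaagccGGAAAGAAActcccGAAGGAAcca
HTB4: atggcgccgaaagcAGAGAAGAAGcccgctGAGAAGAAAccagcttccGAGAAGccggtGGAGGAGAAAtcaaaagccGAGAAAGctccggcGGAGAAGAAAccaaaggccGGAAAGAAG
In these stretches 75.8% of the bases of HTB3 are purines, against 71.7% in HTB2 and 72.5% in HTB4, with 7, 6 and 7 marked runs.

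HTB3 showed the largest difference of the 37 genes in each of the 4 mutants. Its level was 15.5 FPKM in hda9, 22.6 FPKM in hos15, 9.84 FPKM in pwr and 28.4 FPKM in hda9 hos15, against 73.9 FPKM in Col. Every mutant column was below Col, with pwr lowest and the double mutant the least low. On the log2(FPKM + 1) scale, where a difference of at least 1 (2-fold) is counted here as a call, HTB3 fell by 2.19 in hda9, by 1.67 in hos15, by 2.79 in pwr and by 1.35 in hda9 hos15. Among 18912 rows with at least 1 FPKM in at least 2 of the 5 columns, it was the 68th lowest in hda9, the 107th in hos15, the 36th in pwr and the 261st in hda9 hos15. All 4 differences were taken against a single Col column, so they are not independent.

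HTB2, whose longest run of bases shared with HTB3 is 35 nt, had the second lowest log2 difference of the H2B genes in each mutant. It stood at 97.8 FPKM in hda9, 111 FPKM in hos15, 74.7 FPKM in pwr and 147 FPKM in hda9 hos15, against 177 FPKM in Col. Its log2 difference passed 2-fold in pwr, at -1.23, and stood at -0.85 in hda9, -0.66 in hos15 and -0.26 in hda9 hos15.

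**Figure D1:**
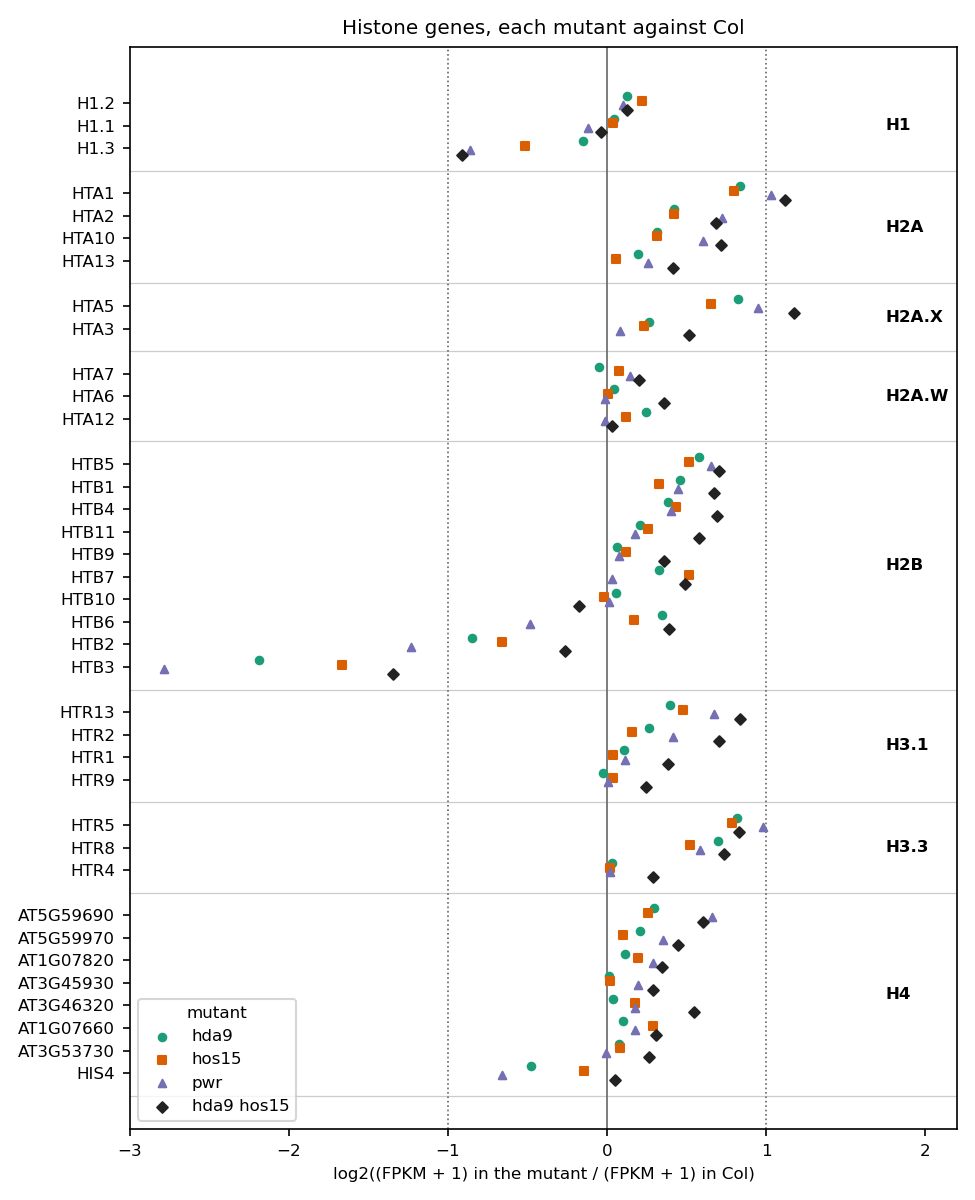
Log2 difference of each histone gene between a mutant and Col (horizontal axis, log2(FPKM + 1) scale; dotted lines at 2-fold), with genes in rows grouped by class and 1 symbol per mutant. HTB3 lies left of the 2-fold line in all 4 mutants and HTB2 in pwr, while HTA1 lies right of it in pwr and hda9 hos15 and HTA5 in hda9 hos15.

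Few of the 37 genes passed 2-fold. In hda9, 0 were higher and 1 (HTB3) was lower, where 1.99% of all 18912 rows were higher and 4.49% lower. In hos15 the counts were again 0 higher and 1 lower (HTB3), against 1.23% and 2.48% of all rows. In pwr, 1 gene was higher (HTA1) and 2 were lower (HTB3 and HTB2), against 1.94% and 7.55% of all rows. In hda9 hos15, 2 genes were higher (HTA1 and HTA5) and 1 was lower (HTB3), against 1.49% and 3.91% of all rows. Counts this small are near the share among all rows, so the calls say little of the histone genes as a set. The calls on the higher side also depended on the scaling of the columns. With all columns set to the same sum, 0 of the 37 genes were higher and 4 lower in pwr, and 0 were higher and 2 lower in hda9 hos15. Of all 18912 rows, 78 were higher and 3128 lower in pwr under this scaling, and 107 and 1523 in hda9 hos15. HTA1 then stood at 0.56 in pwr and 0.82 in hda9 hos15, and HTA5 at 0.88 in hda9 hos15. With quantile normalization 0 were higher in pwr, where HTA1 stood at 0.92, and 1 (HTA1) was higher in hda9 hos15, where HTA5 stood at 0.92. Of all 18912 rows, 538 were then higher in pwr and 348 in hda9 hos15. Median-ratio scaling, which sets each column's median ratio to the columns' geometric mean to 1, raised the higher count in pwr. It gave 3 higher and 2 lower there, beside 535 and 1212 of all rows. In hda9 hos15 it gave 2 higher and 1 lower, beside 335 and 624 of all rows.

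The remaining differences were small and mostly on the higher side as deposited. The 37 genes had a median log2 difference of 0.20 in hda9, 0.17 in hos15, 0.18 in pwr, with 0.39 in hda9 hos15, where the medians of all kept rows were -0.04, -0.01, -0.09 and -0.07. Of the 37 genes, 31 lay above 0 in hda9, 32 in hos15, 28 in pwr, with 32 in hda9 hos15. This direction depended on how columns were scaled: the FPKM columns summed to between 955700 in Col and 1326090 in pwr, and with all columns set to the same sum the medians of all kept rows became -0.27, -0.24, -0.49 and -0.33 and those of the histone genes -0.07, -0.08, -0.29 and 0.10. Under equal sums the histone median was still above that of all rows in each mutant. With quantile normalization the histone medians were 0.00, 0.01, 0.12 and 0.23 and those of all rows 0.03, 0.02, 0.06 and 0.03, so that in hda9 and hos15 the histone median was the lower of the pair.

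The family-wide view of H2B shows shares that do not move when a column is multiplied by a constant. HTB3 made up 1.37% of the summed H2B FPKM in hda9, 1.95% in hos15, 0.903% in pwr, with 2.02% in hda9 hos15, against 6.88% in Col. HTB2 made up 8.66%, 9.62%, 6.85% and 10.5% in the same mutants, against 16.5% in Col. Together they gave 10.02% of the H2B sum in hda9, 11.6% in hos15, 7.76% in pwr, with 12.5% in hda9 hos15, against 23.4% in Col. The 8 other H2B genes summed to 1017 FPKM in hda9, 1024 FPKM in hos15, 1005 FPKM in pwr and 1229 FPKM in hda9 hos15, against 823 FPKM in Col. The whole family came to 1130 FPKM in hda9, 1158 FPKM in hos15, 1090 FPKM in pwr and 1405 FPKM in hda9 hos15, against 1074 FPKM in Col.

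The family's most abundant gene was HTB4, at 321 FPKM in hda9, 332 FPKM in hos15, 325 FPKM in pwr and 397 FPKM in hda9 hos15, against 246 FPKM in Col. It held between 28.2% and 29.8% of the H2B sum in the mutants, against 22.9% in Col. HTB5 stood at 119 FPKM in hda9, 114 FPKM in hos15, 125 FPKM in pwr and 130 FPKM in hda9 hos15, against 79.6 FPKM in Col, a log2 difference between 0.51 and 0.70. HTB6 was below Col in pwr and above it in the other mutants. It stood at 38.01 FPKM in hda9, 33.7 FPKM in hos15, 21.0 FPKM in pwr and 39.4 FPKM in hda9 hos15, against 29.8 FPKM in Col. HTB10, at 3.42 to 4.19 FPKM over the 5 columns, was the least abundant H2B gene and overlaps HTA12 on the opposite strand.

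**Figure D2:**
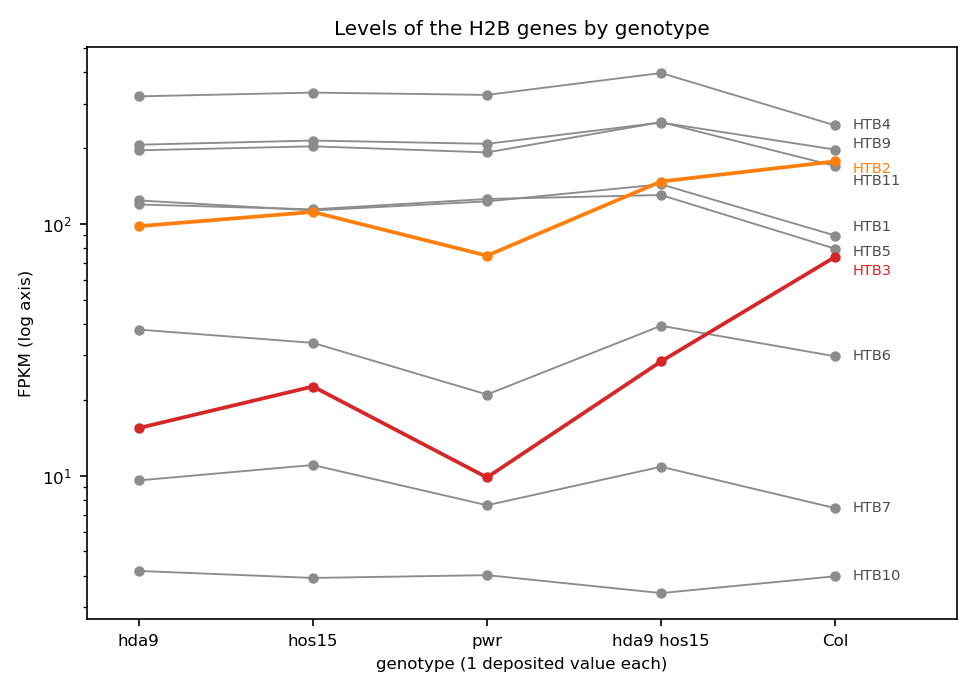
FPKM of the 10 H2B genes on a log axis, with the 4 mutants and then Col along the horizontal axis and 1 deposited value per point. HTB3 (red) stands at 73.9 FPKM in Col and between 9.84 and 28.4 FPKM in the mutants, HTB2 (orange) at 177 FPKM in Col and 74.7 to 147 FPKM in the mutants, and HTB4 is highest in every column.

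Among the H2A types, HTA1 and HTA5 showed the largest differences on the higher side. HTA1, a canonical H2A gene (AT5G54640, chromosome 5), stood at 86.1 FPKM in hda9, 83.8 FPKM in hos15, 98.7 FPKM in pwr and 105 FPKM in hda9 hos15, against 47.9 FPKM in Col. All 4 mutant columns were above Col, by log2 differences of 0.83 in hda9, 0.79 in hos15, 1.03 in pwr, with 1.12 in hda9 hos15. HTA5, an H2A.X gene (AT1G08880, chromosome 1), stood at 185 FPKM in hda9, 164 FPKM in hos15, 202 FPKM in pwr and 237 FPKM in hda9 hos15, against 104 FPKM in Col. Its log2 difference was 0.82 in hda9, 0.65 in hos15, 0.95 in pwr, with 1.17 in hda9 hos15. HTA3, the other H2A.X gene, stayed closer to Col, at 77.8 FPKM in hda9, 76.4 FPKM in hos15, 68.6 FPKM in pwr and 93.1 FPKM in hda9 hos15, against 64.8 FPKM in Col; it overlaps genes on the opposite strand.

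The 4 canonical H2A genes had a median log2 difference of 0.37 in hda9, 0.37 in hos15, 0.66 in pwr, with 0.70 in hda9 hos15. The 3 H2A.W genes, HTA6, HTA7 and HTA12, had a median of 0.04 in hda9, 0.07 in hos15, -0.01 in pwr, with 0.20 in hda9 hos15. Of the summed FPKM of the H2A types, H2A.W therefore held 20.8% in hda9, 21.5% in hos15, 18.8% in pwr, with 20.1% in hda9 hos15, against 26.2% in Col. H2A.X held 27.1%, 25.7%, 25.3% and 27.3% in the same mutants, against 22.5% in Col. Both shares are of H2A, H2A.X and H2A.W together, without H2A.Z. Within H2A.W the most abundant gene, HTA6, ranged only from 131 to 136 FPKM in the single mutants, stood at 170 FPKM in hda9 hos15, and at 132 FPKM in Col.

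The replacement histone H3.3 was represented by 3 abundant genes. HTR5 (AT4G40040, chromosome 4) stood at 776 FPKM in hda9, 760 FPKM in hos15, 869 FPKM in pwr and 783 FPKM in hda9 hos15, against 440.3 FPKM in Col. It was the most abundant histone gene in every column, with log2 differences of 0.82, 0.79, 0.98 and 0.83, all short of 2-fold. HTR8 stood at 507 FPKM in hda9, 449 FPKM in hos15, 468 FPKM in pwr and 521 FPKM in hda9 hos15, against 312 FPKM in Col. HTR4, the neighbour of HTR5 in locus order, stood at 428 FPKM in hda9, 425 FPKM in hos15, 424 FPKM in pwr and 512 FPKM in hda9 hos15, against 419 FPKM in Col. HTR4 encodes the same protein as HTR5 and HTR8, and its log2 difference was 0.03 in hda9, 0.02 in hos15, 0.02 in pwr, with 0.29 in hda9 hos15.

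The replication-coupled H3.1 genes had median log2 differences of 0.19, 0.10, 0.26 and 0.54. The 4 genes with a row of their own summed to 553 FPKM in hda9, 535 FPKM in hos15, 592 FPKM in pwr and 709.9 FPKM in hda9 hos15, against 491 FPKM in Col. The 3 H3.3 genes summed to 1712 FPKM in hda9, 1633 FPKM in hos15, 1761 FPKM in pwr and 1816 FPKM in hda9 hos15, against 1171 FPKM in Col. H3.3 thus made up 75.6% of the H3 sum in hda9, 75.3% in hos15, 74.9% in pwr, with 71.9% in hda9 hos15, against 70.5% in Col. The joined row of HTR3 and AT3G27380 stood at 58.7 FPKM in hda9, 63.0 FPKM in hos15, 53.0 FPKM in pwr and 65.7 FPKM in hda9 hos15, against 71.4 FPKM in Col, and its reads cannot be assigned to either gene.

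Set by role, the 26 replication-dependent genes with their own row (H2A, H2B, H3.1 and H4) had a median log2 difference of 0.20 in hda9, 0.17 in hos15, 0.19 in pwr, with 0.43 in hda9 hos15. The 3 replacement genes of H3.3 had medians of 0.70, 0.52, 0.58 and 0.73. The range of the replication-dependent genes contained that of the H3.3 genes in all 4 mutants, and with 3 genes and no replicates the difference between the roles was not tested. The medians of H3.3, H2A and H2A.X stayed above 0 in all 4 mutants under equal column sums, median-ratio scaling and quantile normalization. Those of H1, H2A.W, H2B, H3.1 and H4 fell on the other side of 0 in at least 1 mutant under at least 1 of these scalings.

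**Figure D3:**
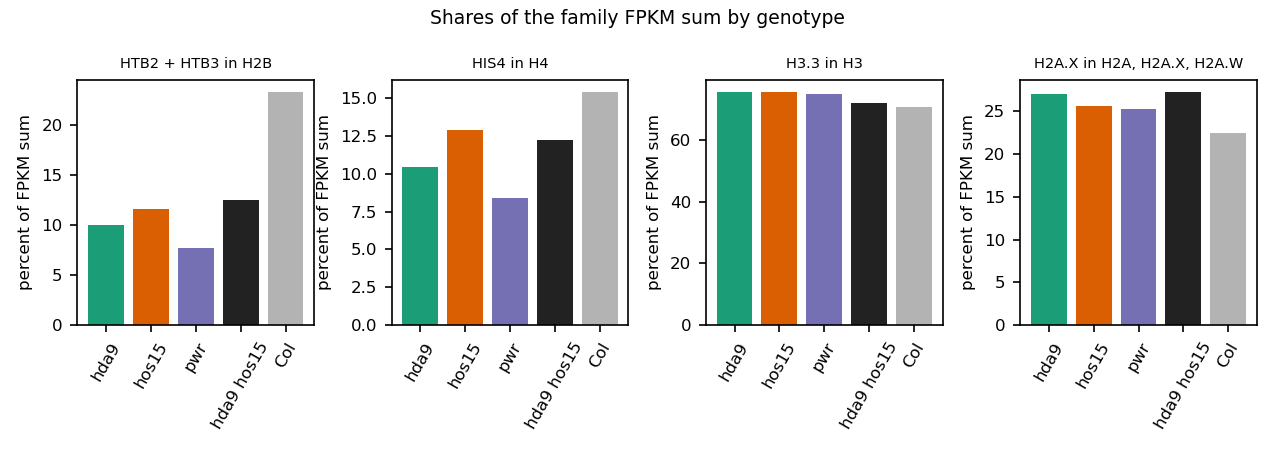
Share of a family's summed FPKM, in percent, held by HTB2 and HTB3 within H2B, by HIS4 within H4, by H3.3 within H3 and by H2A.X within the H2A types (H2A, H2A.X and H2A.W, without H2A.Z), with 1 bar per genotype and axes starting at 0. The first 2 shares are lower in all 4 mutants than in Col (23.4% and 15.4%), and the last 2 are higher than in Col (70.5% and 22.5%).

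HIS4 and AT5G59690 had the lowest and the highest log2 difference of the 8 H4 genes in pwr. HIS4 (AT2G28740, chromosome 2) stood at 74.7 FPKM in hda9, 94.6 FPKM in hos15, 65.8 FPKM in pwr and 108 FPKM in hda9 hos15, against 105 FPKM in Col. AT5G59690, on chromosome 5, stood at 195 FPKM in hda9, 190 FPKM in hos15, 251 FPKM in pwr and 242 FPKM in hda9 hos15, against 159 FPKM in Col. In pwr the log2 difference of HIS4 was -0.66 and that of AT5G59690 was 0.66. HIS4 held 10.5% of the H4 sum in hda9, 12.9% in hos15, 8.38% in pwr, with 12.3% in hda9 hos15, against 15.4% in Col.

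The coding sequences of HIS4 and AT5G59690 give the same protein with different codons: 53 of 104 codons and 63 of 312 bases differ, and 65.1% of the bases are purines in HIS4, against 58.0% in AT5G59690. The first 120 bases are shown, again with purine runs of at least 6 in capitals, since they place the same amino acids beside different purine content.
HIS4: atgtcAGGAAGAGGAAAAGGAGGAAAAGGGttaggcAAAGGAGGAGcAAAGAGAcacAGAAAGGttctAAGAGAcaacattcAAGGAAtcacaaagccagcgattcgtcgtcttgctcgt
AT5G59690: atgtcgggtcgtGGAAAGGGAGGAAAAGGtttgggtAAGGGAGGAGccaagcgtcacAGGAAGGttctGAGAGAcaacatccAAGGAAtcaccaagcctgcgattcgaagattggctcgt
The longest marked run is 25 bases in HIS4 and 17 bases in AT5G59690. The other H4 genes lay between HIS4 and AT5G59690 in pwr, with log2 differences from -0.01 to 0.35. Several H4 genes are near copies of each other (AT3G45930 and AT3G46320 share a run of 160 nt, AT1G07660 and AT1G07820 of 137 nt, AT5G59690 and AT5G59970 of 95 nt), so reads may have been split between them and their separate values are uncertain. HIS4 shares at most 37 nt with any other H4 gene.

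Across the whole table the log2 difference from Col went with the purine content of the transcript, in 4 comparisons that all use a single Col column. Among 18079 protein-coding genes the Spearman correlation between the purine percentage of the transcript and the log2 difference was -0.47 in hda9, -0.42 in hos15, -0.53 in pwr, with -0.46 in hda9 hos15, given as a description since genes of a column share its libraries. Over the 37 histone genes it was -0.54, -0.40, -0.48 and -0.49. Histone transcripts spanned 46.2% purine in HTR4 to 58.6% in H1.3. The differences left after removing smooth trends in purine content, length and GC content are called sequence-adjusted here.

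For HTB3 the sequence-adjusted log2 difference was -1.89 in hda9, -1.45 in hos15, -2.27 in pwr, with -0.97 in hda9 hos15. It remained past 2-fold in the single mutants and fell just short of it in the double mutant. The HTB3 transcript is 53.4% purine, and 2973 genes within 1 percentage point of it had median log2 differences of -0.26, -0.17, -0.39 and -0.27, with HTB3 among the lowest 0.942% of them or lower in each mutant. For HTB2, at 56.6% purine, the sequence-adjusted differences were -0.33, -0.26, -0.49 and 0.20, and 598 genes of similar content had medians of -0.72, -0.52, -1.004 and -0.65. The pwr call of HTB2 was thus lost with the adjustment.

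For HIS4, at 58.3% purine, the sequence-adjusted differences were 0.35 in hda9, 0.56 in hos15, 0.49 in pwr, with 0.84 in hda9 hos15, on the other side of 0 from the deposited ones in the single mutants. HTA5 stood at 0.93, 0.71, 1.19 and 1.33 after adjustment, past 2-fold in pwr as well as in hda9 hos15. HTA1 stood at 0.60, 0.62, 0.81 and 0.91, short of 2-fold in all 4 mutants. HTR5 stood at 0.65, 0.67, 0.83 and 0.70. The H3.1 median became -0.14, -0.11, -0.02 and 0.27, and the H3.3 median 0.31, 0.24, 0.16 and 0.38.

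**Figure D4:**
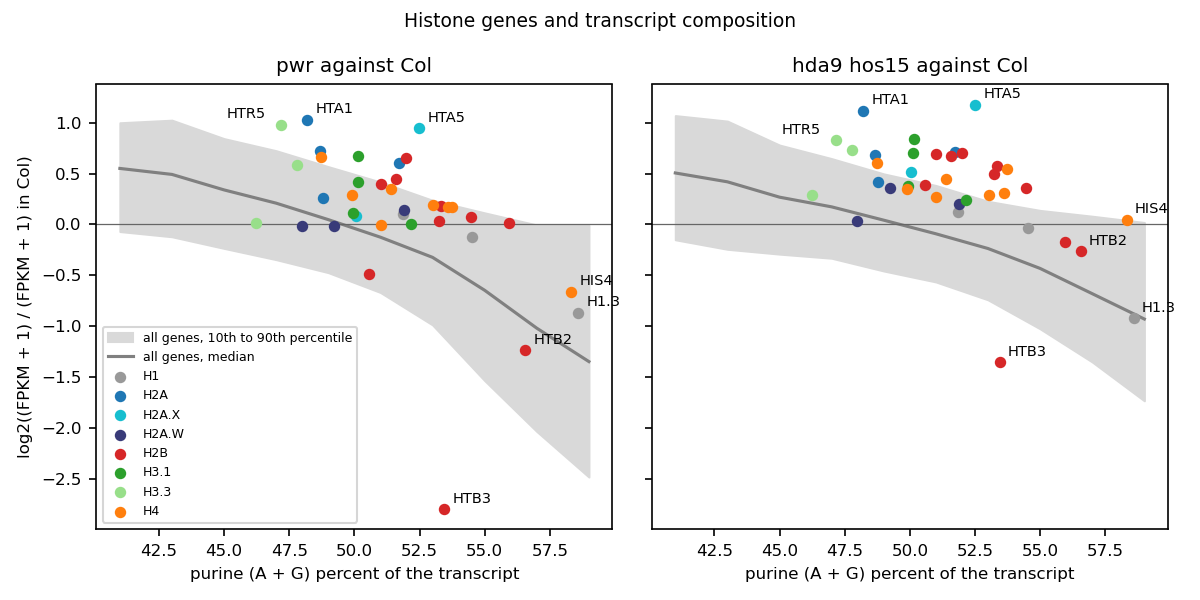
Log2 difference against Col (vertical axis) plotted on the purine percentage of the transcript (horizontal axis) for pwr and hda9 hos15, with histone genes as points coloured by class and all protein-coding genes as a median line with a band from the 10th to the 90th percentile. HTB3, at 53.4% purine, lies below the band in both panels, whereas HTB2 (56.6%) and HIS4 (58.3%) lie inside or above it.

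The linker histones differed little, apart from the weakly expressed H1.3. H1.1 ranged from 193 to 216 FPKM over the 5 columns and H1.2 from 124 to 144 FPKM, and both overlap genes on the opposite strand. H1.3 (AT2G18050, chromosome 2) stood at 4.32 FPKM in hda9, 3.13 FPKM in hos15, 2.25 FPKM in pwr and 2.14 FPKM in hda9 hos15, against 4.92 FPKM in Col. Its log2 differences of -0.15, -0.52, -0.86 and -0.91 were short of 2-fold on the log2(FPKM + 1) scale. In plain FPKM, Col was 2.19 times pwr and 2.30 times hda9 hos15, so this depended on the added 1. With 0.1 added instead, 3 of the 37 genes were lower in pwr and 2 in hda9 hos15. Of all 18912 rows, 2044 and 1211 were then lower. With sequence adjustment the log2 differences of H1.3 were 0.66, 0.15, 0.22 and -0.18. Of 6 listed drought and abscisic acid genes, 5 passed the filter; 0, 0, 1 and 2 of them were higher in hda9, hos15, pwr and hda9 hos15, where 1.99%, 1.23%, 1.94% and 1.49% of all rows were higher. In the same mutants 0, 0, 1 and 0 were lower, beside 4.49%, 2.48%, 7.55% and 3.91% of all rows. The abscisic acid synthesis gene NCED3 stood at 3.37 FPKM in hda9, 3.88 FPKM in hos15, 5.71 FPKM in pwr and 8.90 FPKM in hda9 hos15, against 1.74 FPKM in Col. The list itself split: of the 5 genes, 3 lay above 0 and 2 below in each single mutant, and 4 above and 1 below in hda9 hos15.

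The double mutant was set against each single mutant. By the labels it carries the hda9 and hos15 mutations and not that of pwr. Only the comparisons with hda9 and hos15 therefore add a second mutation. Against hda9, 0 of the 37 genes passed 2-fold in either direction, where 1.85% of all rows did, and against hos15 again 0 passed, where 1.29% did. Against pwr, HTB3 was the only 1 of the 37 past 2-fold, where 1.2% of all rows passed. Its log2 difference was 0.84 against hda9, 0.32 against hos15 and 1.44 against pwr, with the double mutant the higher column each time. Over the 37 genes the median log2 difference was 0.26 against hda9, 0.26 against hos15 and 0.16 against pwr, where the medians of all kept rows were 0.00, -0.04 and 0.04. Of the 37 genes, 32, 31 and 32 lay above 0. H1.3 lay on the lower side, with a log2 difference of -0.76 against hda9 and -0.40 against hos15. These 3 comparisons share the double mutant column.

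HTR2, an H3.1 gene, had the largest log2 difference of the 37 genes between hda9 hos15 and hos15, at 0.54, and 0.44 against hda9. It stood at 318 FPKM in hda9 hos15, against 235 FPKM in hda9, 218 FPKM in hos15, 261 FPKM in pwr and 196 FPKM in Col. HTA10, a canonical H2A gene, stood at 305 FPKM in hda9 hos15, against 231 FPKM in hda9, 231 FPKM in hos15, 283 FPKM in pwr and 186 FPKM in Col, with a log2 difference of 0.40 against hda9 and 0.40 against hos15. In both genes, the double mutant was the highest of the 5 columns and Col the lowest. The summed FPKM of the 37 genes was 6360.2 in hda9 hos15, against 5437 in hda9, 5360 in hos15, 5626 in pwr, with 4503 in Col. Their share of the column sum was 0.540% in hda9 hos15, against 0.471% in hda9, 0.469% in hos15, 0.424% in pwr, with 0.471% in Col.

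Between the single mutants the histone genes differed little. Between hda9 and hos15, 0 of 37 passed 2-fold, where 0.74% of all rows did, and the largest difference was that of HTB3 at -0.52. Between hda9 and pwr, 0 of 37 passed, where 0.925% of all rows did, and HTB6 differed most, at 0.83. Between hos15 and pwr, HTB3 alone passed, at 1.12, where 1.2% of all rows passed, and it stood at 0.83 after sequence adjustment. The median of the 37 genes was 0.01, -0.01 and 0.00 in these comparisons.

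Genes that act with histones in dividing cells were set beside them, from lists chosen by function. Of 24 DNA replication genes, 23 passed the filter on low values. In hda9, hos15, pwr and hda9 hos15, 0 of them were higher, where 1.99%, 1.23%, 1.94% and 1.49% of all rows were. In the same mutants 1, 0, 3 and 0 were lower, where 4.49%, 2.48%, 7.55% and 3.91% of all rows were. The replication medians were -0.31, -0.25, -0.39 and -0.11. MCM6, a subunit of the replicative helicase, stood at 1.85 FPKM in hda9, 2.99 FPKM in hos15, 1.59 FPKM in pwr and 2.50 FPKM in hda9 hos15, against 5.91 FPKM in Col. CDT1B, a licensing factor of replication origins, stood at 2.12, 1.77, 1.12 and 1.72 FPKM in these mutants, against 4.22 FPKM in Col. Of the 23, 2 lay above 0 in hda9 (8.70%), 4 in hos15 (17.4%), 5 in pwr (21.7%), with 9 in hda9 hos15 (39.1%), where 46.3%, 48.2%, 43.1% and 43.4% of all kept rows did. The listed genes summed to 233 FPKM in hda9, 235 FPKM in hos15, 233 FPKM in pwr and 279 FPKM in hda9 hos15, against 255 FPKM in Col. With sequence adjustment the replication medians were -0.14, -0.10, -0.07 and 0.14.

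All 16 mitosis genes passed the filter, with 0 higher and 3, 3, 4 and 3 lower in hda9, hos15, pwr and hda9 hos15. Of all rows, the same 1.99%, 1.23%, 1.94% and 1.49% were higher, and 4.49%, 2.48%, 7.55% and 3.91% were lower. The mitosis medians were -0.60, -0.53, -0.73 and -0.36. HIK, a kinesin of cytokinesis, stood at 0.808 FPKM in hda9, 1.26 FPKM in hos15, 0.514 FPKM in pwr and 0.999 FPKM in hda9 hos15, against 8.30 FPKM in Col. TPX2, a spindle assembly factor, stood at 0.871, 1.03, 0.443 and 1.297 FPKM in these mutants, against 6.86 FPKM in Col. The mitosis genes summed to 134 FPKM in hda9, 136 FPKM in hos15, 124 FPKM in pwr and 149 FPKM in hda9 hos15, against 209 FPKM in Col. Their medians after sequence adjustment were -0.60, -0.55, -0.56 and -0.39, and the part of dividing cells in the histone values was not tested. In whole seedlings, fewer cells of a type and less RNA per cell cannot be told apart.

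Of 16 histone chaperone genes, which hand histones to and from DNA, 15 passed the filter. In hda9, hos15, pwr and hda9 hos15, 0 of them were higher, beside 1.99%, 1.23%, 1.94% and 1.49% of all rows. In the same mutants 3, 1, 5 and 2 were lower, beside 4.49%, 2.48%, 7.55% and 3.91% of all rows. The chaperone medians were -0.53, -0.45, -0.88 and -0.48. The gene left out of these counts, FAS1, encodes the large subunit of CAF-1, which deposits H3.1 at replication, and reached 1 FPKM in the Col column alone. FAS1, named here after its values were seen, stood at 0.389 FPKM in hda9, 0.526 FPKM in hos15, 0.202 FPKM in pwr and 0.907 FPKM in hda9 hos15, against 2.68 FPKM in Col, with log2 differences of -1.41, -1.27, -1.61 and -0.95. FKBP53, a nucleolar chaperone, stood at 2.87 FPKM in hda9, 3.49 FPKM in hos15, 1.97 FPKM in pwr and 4.65 FPKM in hda9 hos15, against 18.4 FPKM in Col. ATRX, which takes part in H3.3 deposition, stood at 2.00, 2.70, 1.53 and 2.31 FPKM in these mutants, against 5.85 FPKM in Col. Other genes of the list differed less, and some are named here, also after their values were seen. In pwr 3 NAP1 genes were past 2-fold on the lower side, at -1.36 (AT4G26110), -1.39 (AT2G19480) and -1.35 (AT5G56950). In the other mutants these NAP1 genes lay between -1.04 and -0.65. In the same order of mutants, the log2 differences of FAS2 were -0.47, -0.49, -0.91 and -0.48. Those of MSI1 were 0.07, 0.13, 0.18 and 0.18, and those of HIRA 0.02, -0.13, 0.04 and 0.04. Of the 15 genes, 4 lay above 0 in each single mutant and 5 in the double mutant. A link between the chaperone genes and the H3.3 genes was not tested. With sequence adjustment the chaperone medians were -0.13, -0.05, -0.23 and -0.01. The 7 genes of the E2F and RBR cell-cycle regulators had 0 past 2-fold in any mutant, beside the same shares of all rows. Of 11 other histone genes, such as those of H2A.Z, 6 passed the filter with 0 past 2-fold, again beside these shares. Their H2A.Z gene HTA9 stood at 158, 150, 187 and 170 FPKM in the mutants, against 110 FPKM in Col.

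**Figure D5:**
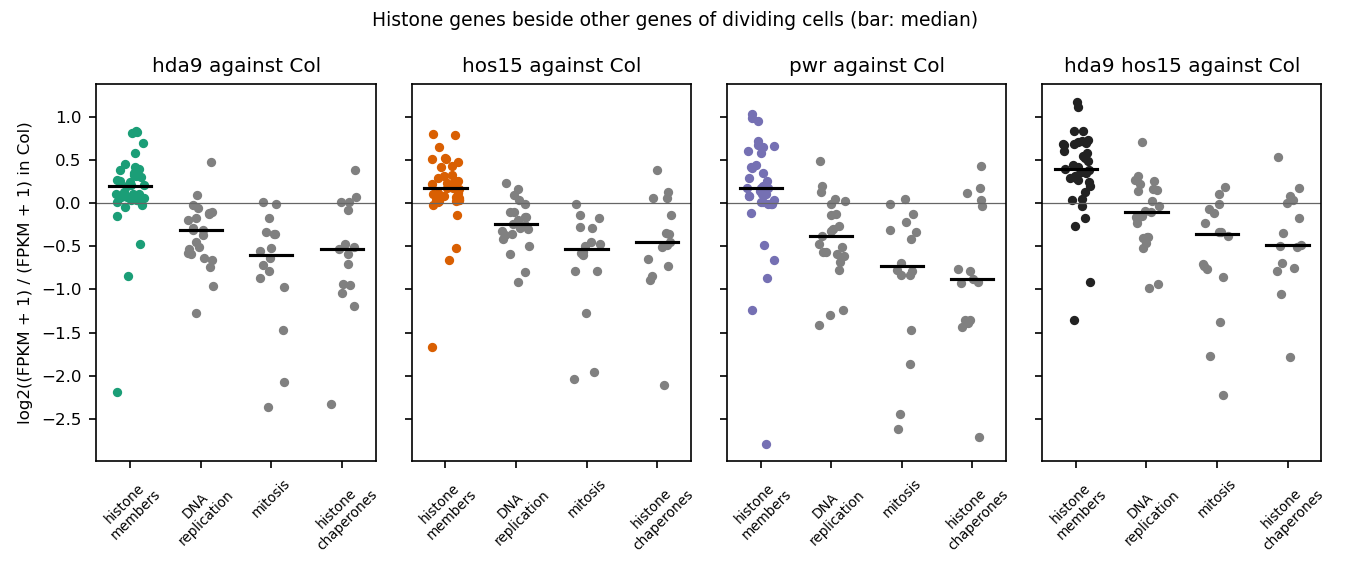
Log2 difference against Col of each gene that passed the filter in 4 lists (histone genes, DNA replication, mitosis and histone chaperones), with 1 panel per mutant and a black bar at the median of each list. The histone medians lie between 0.17 and 0.39 in the 4 mutants, and the medians of the other 3 lists lie between -0.88 and -0.11.

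The promoters were searched, on both strands, for motifs described in plant histone or cell-cycle promoters, in the 250 bases before each annotated transcript start. The octamer CGCGGATC was in 10 of 38 histone promoters (26.3%) and in 0.131% of 27444 protein-coding genes, and in 0 of the 10 H2B genes. The hexamer ACGTCA was in 11 of 38 (28.9%) and in 7.82% of all genes, and 8 of its 11 histone promoters belong to H2B. The motif CCGTTG, which holds the core of an element of mitotic genes, was in 15 of 38 (39.5%) and in 5.35% of all genes. For E2F sites, only the forms TTTCCCGC and TTTGGCGC were searched. Either form was in 2 of 38 (5.26%), both H4 genes, and in 0.958% of all genes. The similar sequence TTTGCCGC, which the HTB2 promoter holds, was not searched, so these counts may miss E2F sites. The nonamer CATCCAACG was in 0 of 38 and 0.153% of all genes. No motif searched contains another. The promoters of HTB3, HTB2 and HTB5 are shown because all 3 H2B genes hold the hexamer while their levels differed from Col in opposite directions, and that of the H3.1 gene HTR2 because it holds the octamer in 2 places. Capitals mark the hexamer or the octamer, and the bases come from RefSeq's TAIR10.1 assembly.
HTB3: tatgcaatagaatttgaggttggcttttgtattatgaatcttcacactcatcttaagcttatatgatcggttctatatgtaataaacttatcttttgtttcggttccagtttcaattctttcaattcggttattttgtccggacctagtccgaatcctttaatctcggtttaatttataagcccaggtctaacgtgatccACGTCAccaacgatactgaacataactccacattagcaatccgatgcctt
HTB2: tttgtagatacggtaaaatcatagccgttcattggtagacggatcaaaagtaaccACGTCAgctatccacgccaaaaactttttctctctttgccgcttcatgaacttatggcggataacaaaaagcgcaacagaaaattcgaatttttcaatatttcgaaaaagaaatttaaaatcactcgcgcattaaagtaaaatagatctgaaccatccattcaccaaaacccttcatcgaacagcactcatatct
HTB5: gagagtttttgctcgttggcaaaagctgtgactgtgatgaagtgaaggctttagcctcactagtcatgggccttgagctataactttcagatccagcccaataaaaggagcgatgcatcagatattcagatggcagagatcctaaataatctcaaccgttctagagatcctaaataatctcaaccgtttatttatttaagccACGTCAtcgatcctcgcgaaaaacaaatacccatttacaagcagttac
HTR2: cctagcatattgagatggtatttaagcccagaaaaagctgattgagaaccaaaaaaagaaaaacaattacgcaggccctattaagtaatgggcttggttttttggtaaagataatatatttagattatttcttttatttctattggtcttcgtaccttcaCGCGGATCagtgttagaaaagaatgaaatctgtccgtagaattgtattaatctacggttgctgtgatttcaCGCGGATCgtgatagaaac
In pwr the log2 difference was -2.79 for HTB3, -1.23 for HTB2 and 0.65 for HTB5. The 10 measured histone genes with the octamer had a median log2 difference of 0.15 in hda9, 0.11 in hos15, 0.22 in pwr, with 0.40 in hda9 hos15, and the 27 without it 0.21, 0.18, 0.14 and 0.39. The 10 measured genes with the hexamer had medians of 0.14, 0.15, 0.04 and 0.37, and the 27 without it 0.20, 0.18, 0.18 and 0.41. The 15 genes with CCGTTG had medians of 0.10, 0.10, 0.18 and 0.38, and the 22 without it 0.25, 0.23, 0.16 and 0.50.

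The mutated genes and the tissue labels were checked in the same table. HDA9 stood at 1.70 FPKM in hda9 and 1.76 FPKM in hda9 hos15, against 7.79 FPKM in Col, and PWR (AT3G52250) at 2.18 FPKM in pwr, against 8.38 FPKM in Col. HOS15 stood at 2.16 FPKM in hos15 and 1.89 FPKM in hda9 hos15, against 16.2 FPKM in Col, and in the hda9 column (4.37 FPKM) and the pwr column (3.17 FPKM), whose labels give no mutation in it, it was below Col as well. Of 6 leaf markers, all passed the filter and 1 (CAB1, a light-harvesting protein gene) was past 2-fold, higher in pwr. In that mutant 1.94% of all rows were higher. Their sum lay between 52776 and 67994 FPKM in the mutants, against 42609.6 FPKM in Col. Of 8 root markers, 6 passed the filter with 0 past 2-fold, beside the shares of all rows given for the histone genes. The root marker sum lay between 61.5 and 71.5 FPKM in the mutants, against 55.8 FPKM in Col. Of the 6 measured root markers, 5, 4, 5 and 5 lay above 0 in the same mutants. The columns themselves summed to between 1142810 and 1326090 in the mutants, against 955700 in Col. Both marker sums therefore depend on how the columns are scaled. Of 3 listed shoot meristem genes, only STM passed the filter. STM stood at 4.78, 4.84, 5.46 and 5.49 FPKM in the mutants, against 2.47 FPKM in Col. WUS was listed at 0 in hda9, pwr and Col. CLV3 stood at 0.209, 0.193, 0 and 0.323 FPKM in the mutants, against 0.0989 FPKM in Col. The part of organ proportions in the histone values was not tested.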

How the data were processed

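Polyadenylated RNA of 10 seedling libraries, 2 for each of 5 genotypes, was sequenced with the TruSeq Stranded mRNA kit, per the labels. TopHat2, Cufflinks and Cuffdiff are named, with the build TAIR10, per the submitters' processing notes, with versions, settings and use of the strand not given in the sources used here. The deposited FPKM values were made by the authors as 1 value per gene and genotype, and the header of a mutant column joins the names of its 2 libraries; the column named WT was taken as Col. Depth, counts and counting intervals cannot be had from these values. A moderated linear model had been planned for values per library and could not be used.

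From these values log2(FPKM + 1) was compared in 10 contrasts on the 18912 rows that reached 1 FPKM in 2 or more of the 5 columns; this scale understates the change of weakly expressed genes. A difference of at least 1 (2-fold) was counted as a call, with no test. Rank and call counts cover the whole table. Sequence-adjusted values are residuals on cubic splines (5 degrees of freedom each) of 4 transcript measures (purine percentage overall and in the richest 100-nt window, GC percentage, log2 length), over 18079 protein-coding genes of at least 300 nt; the procedure was tested on simulated data. Gene models, transcripts and promoters came from RefSeq's TAIR10.1 annotation, matched by locus code. No coordinates are given, since the assembly may differ from that of the deposited table. Python 3.11.15, numpy 2.4.6, pandas 2.3.3, scipy 1.17.1 and patsy 1.0.2 were used.

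The histone genes, the other gene lists, the motifs and the sequence adjustment were chosen with earlier results of these data known. Any histone gene may be named. Of each other list the 2 measured genes with the largest absolute mean log2 difference over the 4 mutants are named. They are named only as far as a result turns on them. The chaperone genes FAS1, FAS2, MSI1, HIRA and the NAP1 genes are named in addition, as are the shoot meristem genes WUS and CLV3. Alternatives covered the pseudocount, the filter, joined rows, 3 scalings of the columns, the size of a call and the sequence adjustment.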

Additional observations from a re-analysis of the deposited data

How the results depend on the processing

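The number of histone genes past 2-fold was recomputed under 11 alternatives, and 90 of 110 recomputed counts stayed within 1.5 times the reported one. Part of this was fixed in advance. Without a filter, or with joined rows left out, the 37 genes kept their values, so their counts could not move. A mean FPKM of at least 5 kept 35 of them, again with unchanged values. The 90 counts are therefore no measure of robustness. A 1.5-fold rule gave 6 genes for hda9, 5 for hos15, 12 for pwr and 14 for hda9 hos15 against Col. Of these, 4 were higher and 2 lower in hda9, 3 and 2 in hos15, 8 and 4 in pwr, and 12 and 2 in hda9 hos15. Over all 18912 rows, 1455 were higher and 2357 lower in hda9, and 1010 and 1523 in hos15. In pwr they were 1727 and 3386, and in hda9 hos15 1353 and 2506. The rule also gave 2 genes in hda9 hos15 against hda9, 4 in hda9 hos15 against pwr, 3 in hda9 against pwr and 2 in hos15 against pwr. Among all rows, higher and lower counts were 308 and 771, 722 and 380, 564 and 186, and 1216 and 239, in that order. A 3-fold rule gave 1 in pwr and 0 in hda9 hos15 against Col, 0 in hda9 hos15 against pwr and 0 in hos15 against pwr. The higher and lower counts of all rows were then 58 and 499, 53 and 155, 30 and 40, and 35 and 27. Equal column sums gave 2 in hda9 against Col, 3 in hda9 hos15 against pwr and 1 in hda9 against pwr. All rows gave 206 higher and 1427 lower, 156 and 75, and 168 and 55 in these comparisons. Median-ratio scaling gave 5 in pwr against Col, 3 higher and 2 lower, beside 535 and 1212 of all rows. Quantile normalization gave 2 in hda9 against Col, beside 453 higher and 660 lower of all rows. A pseudocount of 5 gave 0 in hos15 against pwr, beside 40 higher and 31 lower of all rows. Sequence adjustment gave 1 in hda9 hos15 against Col and 0 in hos15 against pwr. Of 18079 adjusted rows, 148 were higher and 214 lower in the former comparison, and 42 and 22 in the latter. The cause was not tested. Over all rows, the split between higher and lower in pwr was 366 and 1427 as deposited, 535 and 1212 with median-ratio scaling and 78 and 3128 with equal sums. HTB3 in pwr ranged from -3.22 with equal sums to -2.27 with sequence adjustment. No paired analysis was possible because each deposited column joins both libraries of a genotype, and replicates could not be left out for the same reason. The libraries' biological and technical spread and the read depth remain unknown, so a small difference cannot be told from noise, and all 4 comparisons with the wild type rest on a single Col column.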
